A study of Mus musculus with 6 samples.

Results

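The genes described here make up the machinery that copies DNA and supplies its building blocks, in 4T1 cells with and without hairpins against the long noncoding RNA AU021063. A list of 49 gene symbols was looked up in the deposited tables, and all 49 were found among the 24346 symbols. They were sorted by role into 9 groups: origin licensing, helicase activation, the clamp with its loader and the single-strand binding proteins, polymerases and primase, Okazaki fragment maturation, deoxynucleotide supply, pyrimidine synthesis, chromatin behind the fork, and E2F factors. 4T1 cells derive from a metastatic mammary tumour of the mouse. RNA sequencing was performed on 6 libraries in 3 groups of 2: cells carrying the hairpin shRNA3 against AU021063, cells carrying the hairpin shRNA1 against the same RNA, and mock transfected cells named WT. A control hairpin without a target is not among the labelled groups. They give neither the way the hairpins were delivered, nor the time of harvest, nor whether a hairpin line was a clone or whether the 2 libraries of a group were separate cultures, so p-values reflect the spread between library pairs alone, and that spread may be technical.

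DNA replication begins with licensing. In G1 the origin recognition complex, Cdc6 and Cdt1 load the ring of Mcm2 to Mcm7 onto DNA, and at the start of S phase Cdc45 and the GINS complex join this ring to form the active helicase. Polymerase alpha with primase lays primers, polymerase epsilon extends the leading strand and polymerase delta the lagging strand, both held by the sliding clamp PCNA, which the RFC complex loads. Deoxynucleotides come from ribonucleotide reductase, thymidylate synthase and thymidine kinase, and pyrimidine rings from the enzymes CAD, UMPS and CTP synthase. Many of these genes are known targets of E2F transcription factors and are transcribed most at the entry into S phase. In RNA from a whole culture, a smaller share of cells in S phase and less of an mRNA per cell cannot be told apart.

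To show what the genes share in sequence, promoters were read from RefSeq (GRCm38.p6, the assembly also called mm10) as windows of 300 bases, 250 before and 50 after a start site. Windows were listed for 42 of the 49 genes, 50 windows in all. The words TTTCGCGC, TTTGGCGC, TTTCCCGC and TTTGCCGC, which spell the known E2F motif, were searched on both strands, and words may overlap. At least 1 word lay in 15 of the 50 windows (30.0%) and in 744 of the 32851 windows of all genes (2.26%). TTTGCCGC was in 0 of the 50 windows. The word CCAAT, the box bound by NF-Y, was in 28 of the 50 windows (56.0%) and in 37.4% of all windows. The genes with an E2F word were Cdc6, Cdt1, E2f2, Gins3, Lig1, Mcm3, Mcm5, Mcm6, Mcm7, Orc1, Pola1, Pold1, Pole2, Rfc3 and Uhrf1. A match is a run of letters and no measured binding site. The promoters of 4 MCM subunit genes are printed because they are the MCM windows that held an E2F word, and that of Ctps, the gene with the largest rise, because its window held no such word. All are written 5′ to 3′ on the strand of the gene, with E2F words in capitals. They lie at chr1:20820263-20820562 (Mcm3, minus strand, 2 words), chr8:75109259-75109558 (Mcm5, plus strand, 2 overlapping words), chr1:128359656-128359955 (Mcm6, minus strand, 3 words, of which 2 overlap), chr5:138171834-138172133 (Mcm7, minus strand, 2 words, the first of 2 listed windows) and chr4:120570227-120570526 (Ctps, minus strand, the first of 2 listed windows).
Mcm3: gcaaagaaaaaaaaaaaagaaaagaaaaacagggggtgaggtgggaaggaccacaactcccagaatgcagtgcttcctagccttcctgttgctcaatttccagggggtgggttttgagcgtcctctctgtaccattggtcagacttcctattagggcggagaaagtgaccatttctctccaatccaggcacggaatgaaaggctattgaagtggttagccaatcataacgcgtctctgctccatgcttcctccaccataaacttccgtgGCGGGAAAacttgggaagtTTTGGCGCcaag
Mcm5: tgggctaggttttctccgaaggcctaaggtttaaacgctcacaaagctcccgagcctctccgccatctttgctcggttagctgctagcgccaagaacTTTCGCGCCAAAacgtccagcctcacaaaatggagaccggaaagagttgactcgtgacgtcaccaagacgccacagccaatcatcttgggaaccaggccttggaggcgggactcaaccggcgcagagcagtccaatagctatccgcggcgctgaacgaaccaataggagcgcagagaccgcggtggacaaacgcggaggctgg
Mcm6: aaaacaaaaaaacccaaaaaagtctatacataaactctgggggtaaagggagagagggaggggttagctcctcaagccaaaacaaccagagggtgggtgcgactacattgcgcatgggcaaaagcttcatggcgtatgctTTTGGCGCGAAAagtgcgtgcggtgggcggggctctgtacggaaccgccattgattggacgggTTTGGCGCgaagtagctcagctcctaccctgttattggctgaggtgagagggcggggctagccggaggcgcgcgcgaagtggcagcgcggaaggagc
Mcm7: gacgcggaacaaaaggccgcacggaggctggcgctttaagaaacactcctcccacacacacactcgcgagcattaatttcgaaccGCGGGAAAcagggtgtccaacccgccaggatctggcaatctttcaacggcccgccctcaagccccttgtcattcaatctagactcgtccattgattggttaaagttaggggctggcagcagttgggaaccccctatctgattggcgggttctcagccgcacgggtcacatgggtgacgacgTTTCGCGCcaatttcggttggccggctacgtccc
Ctps: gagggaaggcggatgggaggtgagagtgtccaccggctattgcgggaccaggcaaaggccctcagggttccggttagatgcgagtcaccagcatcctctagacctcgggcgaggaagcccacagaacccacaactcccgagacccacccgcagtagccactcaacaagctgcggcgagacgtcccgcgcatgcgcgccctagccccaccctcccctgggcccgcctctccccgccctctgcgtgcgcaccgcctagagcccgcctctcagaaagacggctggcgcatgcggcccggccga

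The authors deposited 1 value per gene and library, taken to be FPKM, which scales fragments to transcript length and library size, so that levels can be compared between genes. Depth relative to WT replicate 1 was 86.8% to 105%, read from the most frequent ratio of low values, and the absolute depth is not known. AU021063 itself was at 0.785 and 0 FPKM with shRNA3 and at 1.04 and 0.572 FPKM with shRNA1, against 1.82 and 1.67 FPKM in WT. These are low values that average under 1 FPKM, so AU021063 was not among the genes tested below. Of the carcinoma markers Krt8 and Krt18 were abundant, Epcam and Cdh1 were between 1.22 and 5.15 FPKM and Krt14 was at 0 in 5 libraries and at 0.042 FPKM in WT replicate 1. The 6 carcinoma markers summed to 734 to 737 FPKM with shRNA3 and to 1020.6 to 1090.3 FPKM with shRNA1, against 929 to 962 FPKM in WT. Most of these sums came from Krt8 and Krt18. Epcam was at 3.039 and 3.508 FPKM with shRNA3 and at 5.145 and 3.768 FPKM with shRNA1, against 2.18 and 2.038 FPKM in WT. Leukocyte, endothelial and erythroid markers summed to at most 0.194 FPKM in any library. The 4 fibroblast markers summed to 59.7 to 63.7 FPKM with shRNA3 and 61.3 to 62.0 FPKM with shRNA1, against 70.0 to 70.8 FPKM in WT. Nearly all of it came from Pdgfra and Pdgfrb, with Col1a2 at 0.014 FPKM or less. Col1a1 went the other way, at 1.794 and 2.175 FPKM with shRNA3 and 1.432 and 1.568 FPKM with shRNA1, against 0.721 and 0.743 FPKM in WT. The part of these marker differences in the results below was not tested.

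Many of the replication genes were lower with shRNA3 than with shRNA1 and WT, while several were higher with shRNA1 than in WT. Values were compared as log2(FPKM + 1) with limma across 11079 genes averaging 1 FPKM or more, a level all 49 genes reached, 48 of them with a mean of at least 5 FPKM. A gene was called at a Benjamini-Hochberg adjusted p under 0.05. Between the hairpins, 26 of the 49 genes were lower with shRNA3 (53.1%) and 4 were higher (8.16%), whereas 20.5% of all genes tested were lower and 22.0% higher. The median change of the 49 genes, shRNA3 over shRNA1, was -0.22 on the log2 scale, beside 0.01 for all genes, and 39 of the 49 genes had a negative change, beside 49.3% of all genes. Against WT, 21 genes fell with shRNA3 (42.9%) and 5 rose (10.2%), beside backgrounds of 27.8% and 27.4%, with a median of -0.13. With shRNA1, 14 genes rose against WT (28.6%) and 4 fell (8.16%), beside backgrounds of 17.6% and 18.4%, with a median of 0.05. This last balance depended on the scaling: with all libraries scaled to 1 common total the median with shRNA1 turned to -0.0078, and 7 genes rose (14.3%), beside 13.2% of all genes. The comparisons with WT share the same 2 WT libraries. Averaged over both hairpins, 15 genes fell and 6 rose against WT, beside backgrounds of 25.9% and 24.1%.

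**Figure D1:**
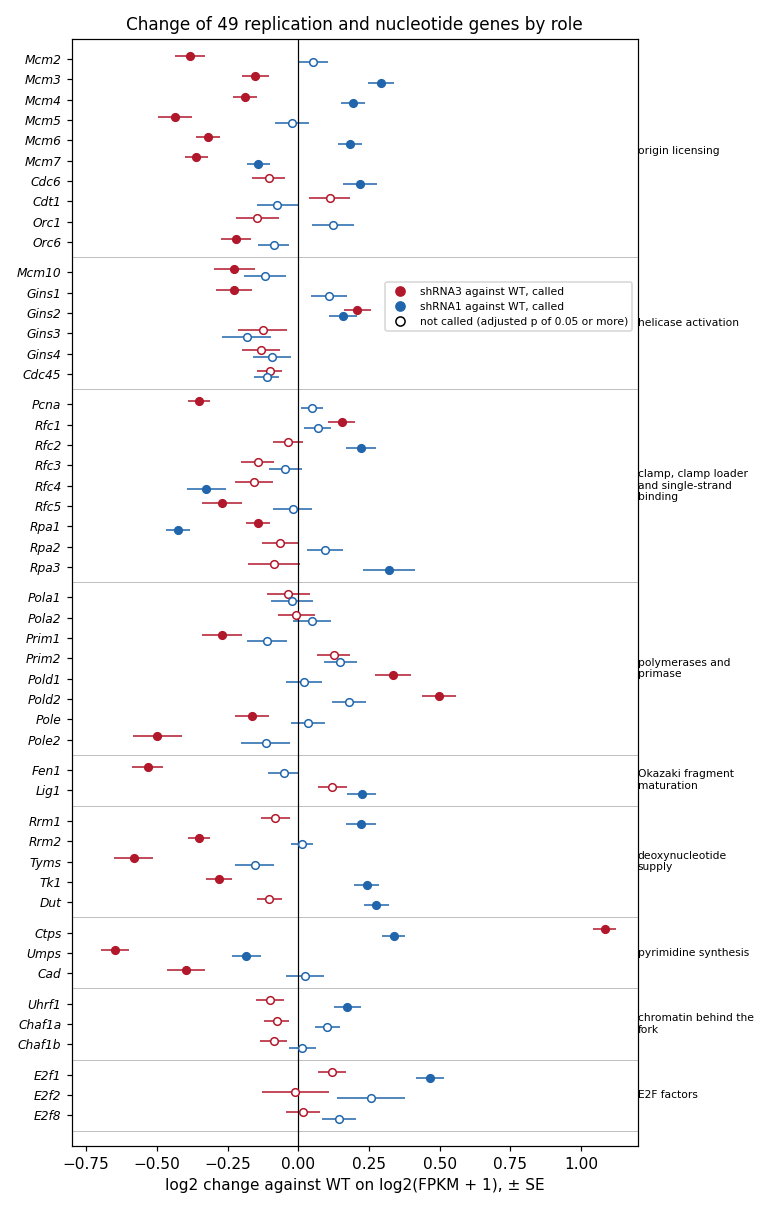
Log2 change against WT on the log2(FPKM + 1) scale (horizontal axis, ± SE from limma) of the 49 genes, grouped by role, for shRNA3 (red) and shRNA1 (blue). Filled points passed the test; most MCM subunit and nucleotide supply genes lie left of 0 with shRNA3, while Ctps lies farthest to the right.

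These counts shift with scaling and with single libraries. Under the common total, 30 genes fell (61.2%) and 3 rose (6.12%) with shRNA3 against WT, beside 34.8% and 21.0% of all genes. With shRNA1, 6 fell (12.2%) and 7 rose, beside 24.6% and 13.2%, and over both 21 fell (42.9%) and 3 rose (6.12%), beside 33.6% and 17.6%. Under the same scaling the rises of Mcm4, Mcm6, Gins2, Cdc6, Rfc2, Rrm1 and Uhrf1 with shRNA1 were no longer called (log2 change 0.10 to 0.17). Between the hairpins 27 were lower (55.1%) and 4 higher (8.16%) with shRNA3 than with shRNA1, beside 21.3% and 19.6% of all genes. Without WT replicate 2, 13 genes fell with shRNA3 (26.5%), beside 22.7% of all genes, and 8 over both hairpins (16.3%), beside 18.6%, so these shares lay near the background. With shRNA1 against WT, 8 genes rose without shRNA1 replicate 1 (16.3%, beside 12.5% of all genes) and 9 without shRNA1 replicate 2 (18.4%, beside 12.8%). In each of these fits, and without WT replicate 2, 2 genes fell (4.08%), beside 12.0% to 12.1% of all genes. When the 4 hairpin libraries were treated as a single group, limma called 0 of the 49 genes, beside 1513 of the 11079 genes tested (7.20% higher and 6.45% lower). At an unadjusted p under 0.05, 4 of the 49 were lower and 4 higher, beside 1910 and 1770 of all genes. Of the 30 calls between the hairpins, 24 held under the 15 alternatives that keep the hairpins apart, 20 of them lower and 4 higher with shRNA3. Calls against WT held less often. In at least 1 of these alternatives 11 of 21 calls ended over both hairpins, 11 of 18 with shRNA1 and 10 of 26 with shRNA3.

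**Figure D2:**
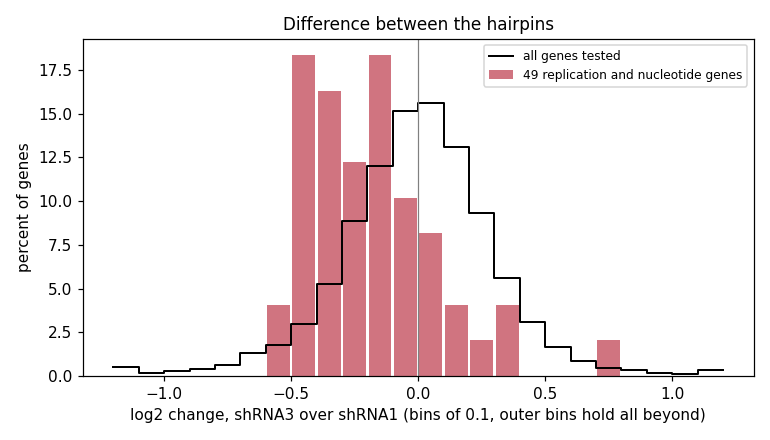
Share of genes (vertical axis, percent) by log2 change of shRNA3 over shRNA1 in bins of 0.1, for the 49 replication and nucleotide genes (bars) and all 11079 genes tested (line). The bars lie mostly left of 0, with a median of -0.22, beside 0.01 for all genes.

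Among the licensing genes, all of Mcm2 to Mcm7, the subunits of the ring-shaped helicase core, fell with shRNA3 against WT and were lower with shRNA3 than with shRNA1. Of the 10 licensing genes 7 (70.0%) fell and 0 rose with shRNA3, beside 27.8% and 27.4% of all genes. With shRNA1, 4 rose (40%) and 1 fell (10%), beside 17.6% and 18.4% of all genes. Of these rises, those of Mcm4, Mcm6 and Cdc6 were no longer called under the common total. Between the hairpins 8 (80.0%) were lower and 0 higher with shRNA3, beside 20.5% and 22.0% of all genes. Mcm6 (chromosome 1, positions 128331590 to 128359664, minus strand) was at 70.3 and 72.7 FPKM with shRNA3 and at 101.7 and 101.6 FPKM with shRNA1, against 91.4 and 87.6 FPKM in WT. The 3 groups did not overlap, with shRNA3 lowest and shRNA1 highest. Its log2 change was -0.50 ± 0.04 for shRNA3 over shRNA1 (SE, limma, adjusted p = 1.26e-04), -0.32 ± 0.04 for shRNA3 against WT (adjusted p = 5.18e-04) and 0.18 ± 0.04 for shRNA1 against WT (adjusted p = 0.0131).

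Mcm3 and Mcm4 had the same order of groups as Mcm6. Mcm3 was at 64.3 and 67.1 FPKM with shRNA3 and at 91.1 and 88.3 FPKM with shRNA1, against 71.4 and 74.9 FPKM in WT. Mcm4 was at 45.2 and 46.3 FPKM with shRNA3 and at 60.4 and 59.3 FPKM with shRNA1, against 52.1 and 52.4 FPKM in WT. For both genes no library of a group reached into another group. The log2 changes of shRNA3 over shRNA1 were -0.44 ± 0.05 for Mcm3 (adjusted p = 3.03e-04) and -0.38 ± 0.04 for Mcm4 (adjusted p = 3.87e-04). Against WT, Mcm3 changed by -0.15 with shRNA3 and 0.29 with shRNA1, and Mcm4 by -0.19 with shRNA3 and 0.19 with shRNA1.

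Mcm2 and Mcm5 differed from WT with shRNA3 and not, by the test, with shRNA1. Mcm2 was at 33.5 and 33.3 FPKM with shRNA3 and at 47.0 and 44.2 FPKM with shRNA1, against 42.4 and 45.4 FPKM in WT, a log2 change of -0.38 ± 0.05 with shRNA3 (adjusted p = 5.85e-04) and 0.05 with shRNA1. Mcm5 was at 27.5 and 28.5 FPKM with shRNA3 and at 37.5 and 37.9 FPKM with shRNA1, against 36.2 and 40.4 FPKM in WT, a change of -0.44 ± 0.06 with shRNA3 (adjusted p = 5.55e-04) and -0.02 with shRNA1. In both genes the shRNA1 libraries overlapped or lay between the WT libraries and the shRNA3 libraries lay below all others. Mcm7, the most abundant of these subunits, fell with both hairpins, to 94.1 and 89.9 FPKM with shRNA3 and 108 and 107 FPKM with shRNA1, against 118 FPKM in both WT libraries. Its change was -0.36 ± 0.04 with shRNA3 (adjusted p = 2.28e-04) and -0.14 ± 0.04 with shRNA1 (adjusted p = 0.0305). Mcm7 is overlapped on the other strand by Ap4m1 and Cops6, and the sources used here do not say whether the authors' quantification used strand.

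Among the loading factors, Cdc6 was at 9.72 and 9.74 FPKM with shRNA3 and at 12.1 and 12.8 FPKM with shRNA1, against 10.7 and 10.4 FPKM in WT, and was lower with shRNA3 than with shRNA1 (-0.32 ± 0.06, limma adjusted p = 0.00383). Orc6 fell with shRNA3 (-0.22), and Orc1, the largest subunit of the origin recognition complex, was lower with shRNA3 than with shRNA1 (-0.27). Cdt1, the MCM loading factor that geminin inhibits, was at 60.2 and 62.8 FPKM with shRNA3 and at 53.9 FPKM in both shRNA1 libraries, against 52.4 and 61.6 FPKM in WT. No comparison of Cdt1 passed the test, and its WT libraries lay far apart. Several licensing calls ended when 1 library was left out, a fit that also has fewer samples. The change of Mcm7 with shRNA1 hardly moved in size. That of Mcm6 hardly moved without either shRNA1 library but went from 0.18 to 0.15 without WT replicate 2. The call of Mcm3 with shRNA3 ended without shRNA3 replicate 1 or without WT replicate 2 (log2 change -0.12 in each), and that of Orc6 without WT replicate 2 (-0.18). With shRNA1, the call of Mcm4 ended without shRNA1 replicate 1 (0.18), that of Mcm6 without either shRNA1 library (0.18 in each) or WT replicate 2 (0.15), that of Cdc6 without shRNA1 replicate 2 (0.18), WT replicate 1 (0.24) or WT replicate 2 (0.20), and that of Mcm7 without either shRNA1 library (-0.15 without replicate 1 and -0.13 without replicate 2) or either WT library (-0.14 in each). The difference of Orc1 between the hairpins ended without shRNA3 replicate 2 (-0.22) or either shRNA1 library (-0.25 without replicate 1 and -0.28 without replicate 2).

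**Figure D3:**
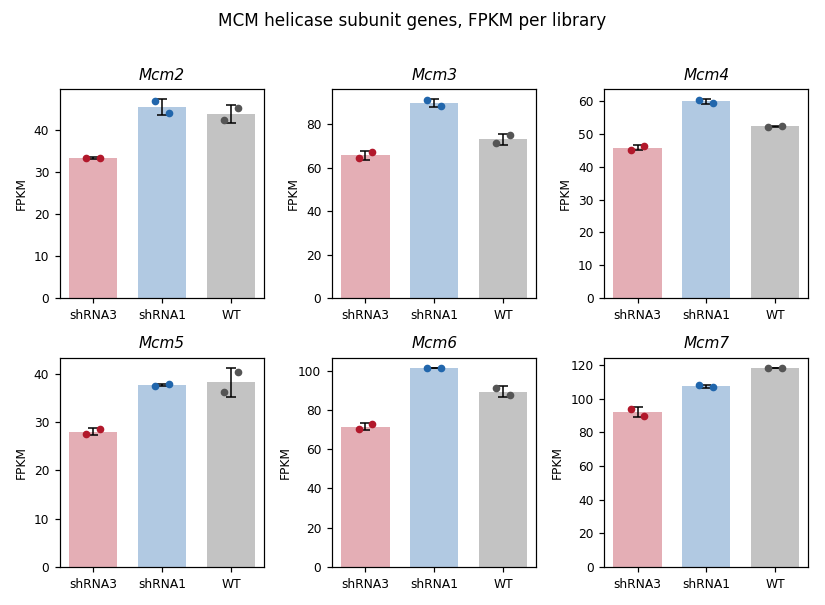
FPKM of Mcm2 to Mcm7 in each library (points), with the group mean (bar) and SD (error bar, n = 2 libraries), for shRNA3, shRNA1 and WT. The shRNA3 libraries lie below all others in each of the 6 genes, for example at 70.3 and 72.7 FPKM for Mcm6. How many of all genes separate in this way was not counted, while 27.8% of them fell with shRNA3 against WT.

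The helicase activation genes did not move together. Of Cdc45, Mcm10 and the 4 GINS genes, 2 fell (33.3%) and 1 rose (16.7%) with shRNA3, beside 27.8% and 27.4% of all genes, and 1 rose (16.7%) and 0 fell with shRNA1, beside 17.6% and 18.4%. Between the hairpins 1 was lower with shRNA3 (16.7%), beside 20.5%, so most of these shares lay near the background. Gins1 was at 19.8 and 17.9 FPKM with shRNA3 and at 23.8 and 24.2 FPKM with shRNA1, against 21.3 and 23.1 FPKM in WT, with a difference between the hairpins of -0.34 ± 0.06 (limma adjusted p = 0.00477). Gins2, another subunit of the same complex of 4 proteins, went the other way from WT: it was at 48.9 and 49.3 FPKM with shRNA3 and at 48.4 and 46.3 FPKM with shRNA1, against 43.5 and 41.2 FPKM in WT. All 4 knockdown libraries of Gins2 lay above both WT libraries, and its log2 change was 0.21 ± 0.05 with shRNA3 (adjusted p = 0.00720) and 0.16 ± 0.05 with shRNA1 (adjusted p = 0.0365). Mcm10, a factor needed for helicase activation, fell with shRNA3 (-0.23). Gins3, Gins4 and Cdc45 passed no test of a single hairpin, with changes from WT between -0.18 and -0.09. Over both hairpins Cdc45 was called lower (-0.11 ± 0.04, limma adjusted p = 0.0451). That call ended with the replicate number as a block, without a trend in the prior variance, or without any 1 of the 6 libraries (-0.12 to -0.09).

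The call of Gins1 against WT with shRNA3 (-0.23) ended without shRNA3 replicate 2 (-0.16) or WT replicate 2 (-0.17), and that of Mcm10 without shRNA3 replicate 1 (-0.21), shRNA3 replicate 2 (-0.25) or WT replicate 2 (-0.14). With shRNA3 the rise of Gins2 ended with all libraries scaled to 1 common total (0.14). With shRNA1 it ended under that scaling (0.10) and without shRNA1 replicate 1 (0.13), shRNA1 replicate 2 (0.19), WT replicate 2 (0.12) or either shRNA3 library (0.16 in each). The same rise also ended with the replicate number as a block or without a trend in the prior variance (0.16 in each).

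The sliding clamp and its loader differed in response. Pcna, the clamp gene and the most abundant of the 49 (chromosome 2, positions 132249162 to 132253314, minus strand), was at 173 and 169 FPKM with shRNA3 and at 223 and 229 FPKM with shRNA1, against 218 and 219 FPKM in WT. The shRNA3 libraries lay below the other 4, with a change of -0.35 ± 0.04 against WT (limma adjusted p = 1.84e-04) and of -0.40 ± 0.04 against shRNA1 (adjusted p = 1.97e-04). With shRNA1 its change from WT was 0.05. Pcna has 2 annotated pseudogenes, Pcna-ps1 and Pcna-ps2, which could share reads with it.

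Of the RFC genes, which encode the clamp loader, Rfc5 fell (-0.27) and Rfc1, the large subunit, rose (0.15) with shRNA3. Rfc2 rose (0.22) and Rfc4 fell (-0.33) with shRNA1. Rfc4 was at 72.3 and 66.0 FPKM with shRNA3 and at 57.8 and 65.1 FPKM with shRNA1, against 79.0 and 75.4 FPKM in WT, all knockdown libraries below WT. Rfc4 is overlapped on the other strand by Eif4a2, Rfc2 by Lat2 and Rfc5 by Wsb2. Rfc3 passed no test. Between the hairpins Rfc2 (-0.26) and Rfc5 (-0.25) were lower with shRNA3. The rise of Rfc1 ended without either shRNA3 library (0.17 without replicate 1 and 0.14 without replicate 2), without WT replicate 2 (0.13), and under the common total (0.08). It also ended with the replicate number as a block (0.15). The fall of Rfc5 ended without shRNA3 replicate 1 (-0.18) or WT replicate 2 (-0.22), and its difference between the hairpins without shRNA1 replicate 2 (-0.22) or shRNA3 replicate 1 (-0.16). The rise of Rfc2 ended without shRNA1 replicate 1 (0.18) or WT replicate 1 (0.19).

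The RPA genes, whose products form the trimer that coats single-stranded DNA, did not move as a unit. Rpa1, the large subunit, was at 45.5 and 46.3 FPKM with shRNA3 and at 37.6 and 37.5 FPKM with shRNA1, against 51.0 and 50.6 FPKM in WT. The groups did not overlap and shRNA1 was lowest. Rpa1 changed by -0.43 ± 0.04 with shRNA1 (limma adjusted p = 2.28e-04) and by -0.14 ± 0.04 with shRNA3 (adjusted p = 0.0207), and was higher with shRNA3 than with shRNA1 (0.28 ± 0.04, adjusted p = 0.00148). Rpa3, the small subunit, was at 69.1 and 57.2 FPKM with shRNA3 and at 78.5 and 89.1 FPKM with shRNA1, against 68.8 and 64.8 FPKM in WT, highest with shRNA1. Its rise with shRNA1 was 0.32 and its difference between the hairpins -0.41. Rpa2 passed no test. The call of Rpa1 with shRNA3 ended without any of the shRNA3 or WT libraries (between -0.16 and -0.13). The rise of Rpa3 ended without shRNA1 replicate 2 (0.23), WT replicate 1 (0.36) or WT replicate 2 (0.28), and its difference between the hairpins without shRNA1 replicate 2 (-0.32) or shRNA3 replicate 2 (-0.27).

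Among the polymerases, Pold1 and Pold2 of polymerase delta rose and Pole and Pole2 of polymerase epsilon fell with shRNA3. In this role 3 of the 8 genes fell (37.5%) and 2 rose (25%) with shRNA3, beside 27.8% and 27.4% of all genes. These shares lay near the background. With shRNA1, 0 of the 8 passed the test, beside 36.0% of all genes in either direction. Between the hairpins 2 were lower (25%) and 2 higher (25%) with shRNA3, beside 20.5% and 22.0%. Pold2, an accessory subunit of polymerase delta, was at 94.5 and 92.2 FPKM with shRNA3 and at 78.4 and 71.2 FPKM with shRNA1, against 63.2 and 68.6 FPKM in WT. The 3 groups did not overlap. Its change was 0.50 ± 0.06 with shRNA3 (limma adjusted p = 3.08e-04), 0.18 ± 0.06 with shRNA1 (adjusted p = 0.0504, not called) and 0.32 ± 0.06 for shRNA3 over shRNA1 (adjusted p = 0.00436). Pold1, the catalytic subunit, was at 45.6 and 49.7 FPKM with shRNA3 and at 39.2 and 37.0 FPKM with shRNA1, against 36.0 and 39.2 FPKM in WT, so that only shRNA3 stood above WT, by 0.33 ± 0.06 (adjusted p = 0.00291).

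Pole2, an accessory subunit of polymerase epsilon, was at 12.4 and 12.1 FPKM with shRNA3 and at 15.3 and 17.4 FPKM with shRNA1, against 16.4 and 19.2 FPKM in WT, a change of -0.50 ± 0.09 with shRNA3 (limma adjusted p = 0.00178). Pole, the catalytic subunit, was at 9.92 and 10.6 FPKM with shRNA3 and at 11.8 and 12.0 FPKM with shRNA1, against 11.9 and 11.4 FPKM in WT, a change of -0.16 ± 0.06 at the edge of the threshold (adjusted p = 0.04998). That call ended without any of the 6 libraries in turn, with values between -0.21 and -0.12. Of the smaller subunits, on the list of other fork genes, Pold4 rose and Pole3 and Pole4 fell with shRNA3, while Pold3 was not called. Pold4 was at 87.6 and 82.2 FPKM with shRNA3 and at 66.6 and 65.6 FPKM with shRNA1, against 45.8 and 47.9 FPKM in WT (0.84 ± 0.05 with shRNA3, adjusted p = 9.61e-06). Pole4 was at 10.8 and 10.3 FPKM with shRNA3 and at 15.2 and 16.6 FPKM with shRNA1, against 21.5 and 22.2 FPKM in WT (-0.98 ± 0.06 with shRNA3, adjusted p = 1.46e-05). Pole3, the partner of Pole4 in a histone-fold pair, fell by 0.33 with shRNA3 and by 0.25 with shRNA1. Pold3 was at 19.4 and 17.7 FPKM with shRNA3 and at 18.8 and 18.3 FPKM with shRNA1, against 17.1 and 17.5 FPKM in WT. Sorting the genes by polymerase was done after their values were seen.

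Of polymerase alpha and primase, Prim1, the catalytic primase subunit, fell with shRNA3 (-0.27), at 27.3 and 26.5 FPKM, against 31.5 and 33.9 FPKM in WT. Pola1, Pola2 and Prim2 passed no test, with changes from WT between -0.04 and 0.15. The call of Prim1 ended without shRNA3 replicate 2 (-0.25) or WT replicate 2 (-0.22). The differences between the hairpins of Pole2 (-0.38) ended without shRNA1 replicate 2 (-0.29) or shRNA3 replicate 2 (-0.37), and that of Pole (-0.20) without shRNA1 replicate 1 (-0.21), shRNA1 replicate 2 (-0.19) or shRNA3 replicate 1 (-0.16). With shRNA1 the call of Pole3 ended without shRNA1 replicate 1 (-0.22) or WT replicate 1 (-0.17).

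The enzymes of Okazaki fragment maturation differed from each other. Fen1, the flap endonuclease that removes primers, was at 11.5 and 12.0 FPKM with shRNA3 and at 16.8 FPKM in both shRNA1 libraries, against 17.2 and 17.6 FPKM in WT. The shRNA3 libraries stood apart from the other 4, with a change of -0.53 ± 0.05 against WT (limma adjusted p = 1.23e-04) and -0.48 ± 0.05 against shRNA1 (adjusted p = 4.00e-04). Lig1, the ligase that seals the fragments, was at 45.7 and 48.0 FPKM with shRNA3 and at 52.1 and 48.8 FPKM with shRNA1, against 42.7 and 43.4 FPKM in WT, and rose with shRNA1 (0.22). That rise ended without shRNA1 replicate 1 (0.18) or WT replicate 1 (0.21). Fen1 is overlapped on the other strand by Tmem258, and Lig1 by Zswim9.

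**Figure D4:**
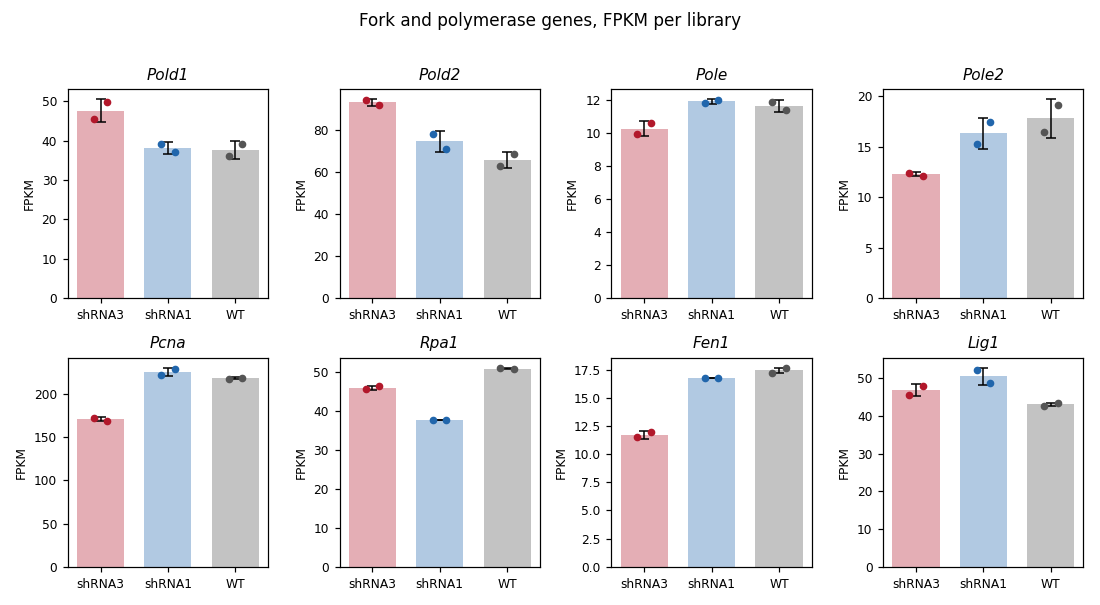
FPKM per library (points) of polymerase, clamp and fork genes, with the group mean (bar) and SD (error bar, n = 2 libraries), for shRNA3, shRNA1 and WT. Pold1 and Pold2 are highest with shRNA3, Pole2 and Fen1 lowest with shRNA3, and Rpa1 lowest with shRNA1, at 37.6 and 37.5 FPKM.

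All 5 genes of deoxynucleotide supply were lower with shRNA3 than with shRNA1, beside 20.5% of all genes. Against WT 3 of the 5 fell (60.0%) and 0 rose with shRNA3, beside 27.8% and 27.4% of all genes, and 3 rose (60.0%) and 0 fell with shRNA1, beside 17.6% and 18.4%. Tk1, the thymidine kinase of the salvage pathway (chromosome 11, positions 117815526 to 117826092, minus strand), was at 67.3 and 63.8 FPKM with shRNA3 and at 95.9 and 93.0 FPKM with shRNA1, against 78.6 and 81.0 FPKM in WT. The groups did not overlap, and the changes were -0.28 ± 0.05 with shRNA3 (limma adjusted p = 0.00134), 0.24 ± 0.05 with shRNA1 (adjusted p = 0.00532) and -0.52 ± 0.05 for shRNA3 over shRNA1 (adjusted p = 1.43e-04). Tk1 is overlapped on the other strand by Afmid.

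The subunits of ribonucleotide reductase split. Rrm2, the small subunit that is limiting in the cell cycle, was at 80.9 and 80.1 FPKM with shRNA3 and at 104 FPKM in both shRNA1 libraries, against 104 and 101 FPKM in WT, a change of -0.35 ± 0.04 with shRNA3 (limma adjusted p = 2.19e-04) and 0.01 with shRNA1. Rrm1, the large subunit, was at 47.9 and 48.6 FPKM with shRNA3 and at 57.5 and 62.1 FPKM with shRNA1, against 52.4 and 49.8 FPKM in WT, a change of -0.08 with shRNA3 and 0.22 with shRNA1. Both were lower with shRNA3 than with shRNA1, by -0.36 for Rrm2 and -0.30 for Rrm1. The rise of Rrm1 with shRNA1 ended without shRNA1 replicate 2 (0.17) or WT replicate 2 (0.19).

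Tyms, the thymidylate synthase gene, had the largest fall of this group: it was at 8.30 and 8.12 FPKM with shRNA3 and at 11.9 and 10.9 FPKM with shRNA1, against 13.3 and 12.3 FPKM in WT. The shRNA3 level was 64.2% of WT, a log2 change of -0.58 ± 0.07 (limma adjusted p = 2.78e-04), while the change with shRNA1 was -0.15 and not called. Tyms has an annotated pseudogene, Tyms-ps. Dut, whose product removes dUTP and makes the substrate of thymidylate synthase, was at 65.9 and 68.1 FPKM with shRNA3 and at 86.1 and 88.7 FPKM with shRNA1, against 73.2 and 70.8 FPKM in WT. It rose with shRNA1 (0.28 ± 0.04, adjusted p = 0.00233) and was lower with shRNA3 than with shRNA1 (-0.38 ± 0.04, adjusted p = 4.75e-04).

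Of the pyrimidine synthesis genes, Ctps rose and Umps and Cad fell with shRNA3. Ctps, the CTP synthase gene (chromosome 4, positions 120539868 to 120570276, minus strand), was at 90.6 and 89.8 FPKM with shRNA3 and at 52.7 and 54.0 FPKM with shRNA1, against 42.2 and 41.9 FPKM in WT. The groups did not overlap and followed the order shRNA3, shRNA1, WT. The mean was 2.15-fold that of WT with shRNA3 and 1.27-fold with shRNA1, log2 changes of 1.08 ± 0.04 (limma adjusted p = 1.37e-06) and 0.34 ± 0.04 (adjusted p = 6.52e-04). The difference between the hairpins was 0.75 ± 0.04 (adjusted p = 2.13e-05). Its calls held under the 15 alternatives that keep the hairpins apart.

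Umps, whose product makes UMP from orotate (chromosome 16, positions 33954782 to 33967038, minus strand), was at 17.7 and 18.4 FPKM with shRNA3 and at 25.2 and 25.4 FPKM with shRNA1, against 28.3 and 29.5 FPKM in WT. It had the largest fall of the 49 genes, to 62.5% of WT with shRNA3 (-0.65 ± 0.05, limma adjusted p = 3.67e-05) and to 87.6% with shRNA1 (-0.18 ± 0.05, adjusted p = 0.0242). The call with shRNA1 ended without either shRNA1 library (-0.18 without replicate 1 and -0.19 without replicate 2) or either WT library (-0.21 without replicate 1 and -0.15 without replicate 2). Cad, the enzyme of the first steps of pyrimidine synthesis, was at 9.15 and 10.3 FPKM with shRNA3 and at 13.4 and 13.3 FPKM with shRNA1, against 12.9 and 13.3 FPKM in WT. Only the shRNA3 libraries stood below WT, with a change of -0.40 ± 0.07 (adjusted p = 0.00163).

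**Figure D5:**
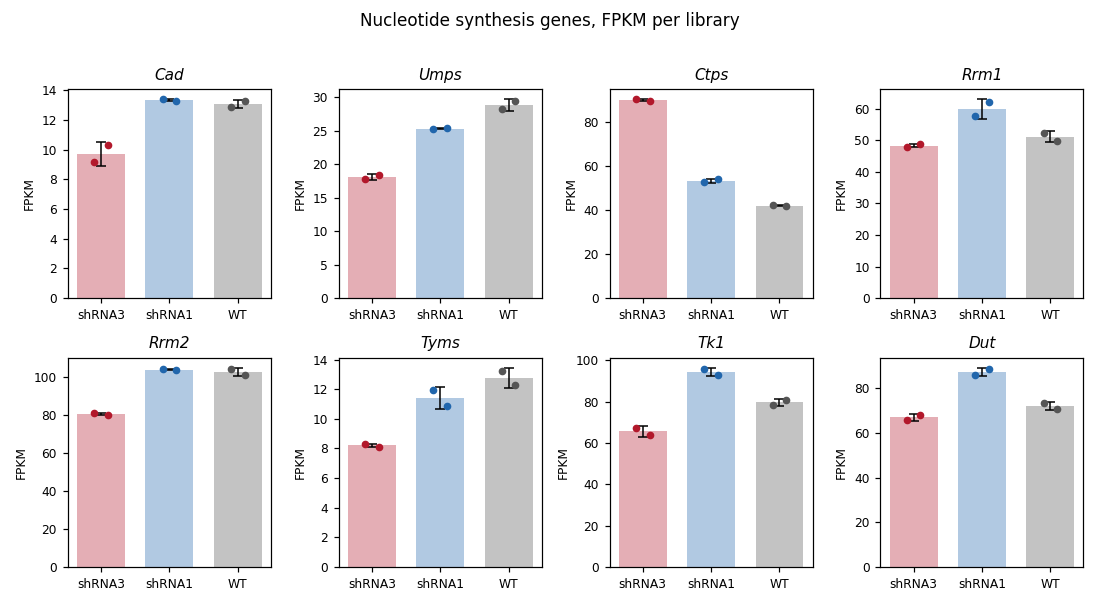
FPKM per library (points) of the nucleotide synthesis genes, with the group mean (bar) and SD (error bar, n = 2 libraries), for shRNA3, shRNA1 and WT. Ctps is highest with shRNA3 (90.6 and 89.8 FPKM), whereas the other 7 genes are lowest with shRNA3.

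Of the 3 genes that rebuild chromatin behind the fork, 2 were lower (66.7%) and 0 higher with shRNA3 than with shRNA1, beside 20.5% and 22.0% of all genes. Uhrf1, which brings the maintenance DNA methyltransferase to newly copied DNA, was at 42.9 and 43.4 FPKM with shRNA3 and at 53.1 and 51.6 FPKM with shRNA1, against 47.9 and 44.8 FPKM in WT, and was lower with shRNA3 than with shRNA1 (-0.27 ± 0.05, limma adjusted p = 0.00332). Chaf1a, the large subunit of the histone chaperone CAF-1, was also lower with shRNA3 than with shRNA1 (-0.18), and Chaf1b passed no test. Against WT 0 of the 3 genes passed the test with shRNA3, beside 55.2% of all genes in either direction, and Uhrf1 rose with shRNA1 (0.17). That rise ended without either shRNA1 library (0.15 without replicate 1 and 0.19 without replicate 2) or WT replicate 2 (0.13). The difference of Chaf1a ended without shRNA1 replicate 1 (-0.16) or shRNA3 replicate 2 (-0.17).

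E2f1, an activating E2F factor, rose with shRNA1. It was at 25.8 and 24.8 FPKM with shRNA3 and at 33.1 and 31.7 FPKM with shRNA1, against 23.0 and 23.3 FPKM in WT. All knockdown libraries lay above WT, by 0.47 ± 0.05 with shRNA1 (limma adjusted p = 3.44e-04) and by 0.12 ± 0.05 with shRNA3 (adjusted p = 0.0736, not called), and the hairpins differed by -0.35 ± 0.05 (adjusted p = 0.00129). E2f2, another activator, was the least abundant of the 49 genes, between 1.24 and 1.997 FPKM, and E2f8, a repressing member of the family, lay between 22.5 and 26.5 FPKM. Neither passed a test. Of the 15 genes with an E2F word in a promoter window 8 were lower and 1 was higher with shRNA3 than with shRNA1, and of the 27 without a word 14 were lower and 3 higher, beside 20.5% and 22.0% of all genes.

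Further genes of the pathway were taken from 5 lists. Their counts are to be read against all genes, of which 27.8% fell and 27.4% rose with shRNA3 and 18.4% fell and 17.6% rose with shRNA1. Of 15 other origin and firing genes 7 fell (46.7%) and 1 rose (6.67%) with shRNA3, and 5 fell (33.3%) and 3 rose (20%) with shRNA1. Mtbp, a partner of the firing factor treslin, was at 34.9 and 33.0 FPKM with shRNA3 and at 39.1 and 40.1 FPKM with shRNA1, against 49.8 and 50.5 FPKM in WT. Mtbp fell with both hairpins (-0.55 ± 0.05 with shRNA3, limma adjusted p = 5.92e-05, and -0.33 ± 0.05 with shRNA1, adjusted p = 0.00141), as did the origin recognition subunits Orc2 (-0.41 and -0.32) and Orc5 (-0.47 and -0.25). With shRNA1 the call of Orc2 ended without shRNA1 replicate 1 (-0.25) or WT replicate 1 (-0.30), and that of Orc5 without shRNA1 replicate 1 (-0.18), WT replicate 1 (-0.27) or WT replicate 2 (-0.23). Of 18 other fork genes 8 fell (44.4%) and 1 rose (5.56%) with shRNA3, and 2 fell (11.1%) and 1 rose (5.56%) with shRNA1, Pold4, Pole4 and Pole3 leading as given above.

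Of 30 other nucleotide synthesis genes 11 fell (36.7%) and 6 rose (20%) with shRNA3, beside 27.8% and 27.4% of all genes. With shRNA1, 4 fell (13.3%) and 5 rose (16.7%), beside 18.4% and 17.6%, so these shares lay near the background. Adsl, an enzyme of purine synthesis, was at 7.44 and 6.90 FPKM with shRNA3 and at 10.9 and 10.4 FPKM with shRNA1, against 13.1 and 13.8 FPKM in WT, a change of -0.82 ± 0.07 with shRNA3 (limma adjusted p = 4.11e-05). Nme1, a nucleoside diphosphate kinase, was at 30.8 and 26.7 FPKM with shRNA3 and at 60.8 and 62.5 FPKM with shRNA1, against 60.7 and 63.8 FPKM in WT. Only the shRNA3 libraries were low, by -1.09 ± 0.07 against WT (adjusted p = 1.31e-05). Nme1 has a close relative, Nme2, and reads of the pair may not have been separated. Dctd, the dCMP deaminase, fell with shRNA3 (-0.63) and shRNA1 (-0.35).

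Of 10 other genes of chromatin replication 5 fell (50%) and 0 rose with shRNA3, beside 27.8% and 27.4% of all genes, and 2 fell (20%) and 0 rose with shRNA1, beside 18.4% and 17.6%. Nasp, a histone chaperone, was at 36.4 and 37.5 FPKM with shRNA3 and at 57.4 and 58.7 FPKM with shRNA1, against 58.5 and 57.8 FPKM in WT, a change of -0.64 ± 0.04 with shRNA3 (limma adjusted p = 1.84e-05) and of less than 0.01 in size with shRNA1. Asf1a, another histone chaperone, fell with both hairpins (-0.53 with shRNA3 and -0.39 with shRNA1), as did Ssrp1, a subunit of FACT (-0.34 and -0.18). The call of Ssrp1 with shRNA1 ended without shRNA1 replicate 2 (-0.17) or WT replicate 1 (-0.16). Of 10 other E2F and RB family genes 4 fell (40.0%) and 4 rose (40.0%) with shRNA3, beside 27.8% and 27.4% of all genes, and 3 fell (30.0%) and 2 rose (20%) with shRNA1, beside 18.4% and 17.6%. E2f3, an activating E2F factor, fell with both hairpins (-0.39 with shRNA3 and -0.52 with shRNA1), as did Rbl1, the gene of p107 (-0.31 and -0.46). Rb1, the retinoblastoma gene, was at 9.13 and 8.98 FPKM with shRNA3 and at 7.12 and 7.03 FPKM with shRNA1, against 6.57 and 5.51 FPKM in WT, and rose with shRNA3 (0.52 ± 0.08, adjusted p = 0.00121). Between the hairpins 6 of the 15 origin and firing genes, 8 of the 18 fork genes, 11 of the 30 nucleotide synthesis genes, 4 of the 10 chromatin genes and 1 of the 10 E2F and RB family genes were lower with shRNA3, beside 20.5% of all genes. Higher with shRNA3 were 0, 1, 3, 0 and 2 genes of these lists in the same order, beside 22.0% of all genes.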

How the data were processed

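RNA of 4T1 cells was isolated with a column kit and sequenced as stranded mRNA libraries, per the labels' protocols. Groups and replicate numbers were taken from the sample titles. The authors deposited 1 table per library with gene symbols and values whose unit is not written. It was taken to be FPKM, since Cufflinks 2.2.1 stands in the submitters' processing notes and the values have 3 decimals and differing totals (560862 to 604022 per library). Alignment tools in these notes are Bowtie2 2.2.3, TopHat2 2.0.13 and SAMtools 0.1.19, with the build mm10. The annotation and strand setting are not stated there. Of the 49 genes, 19 are overlapped by a gene on the other strand in GENCODE mouse release 21, from which positions were taken. Among them are also Gins2 (by Gse1), Orc6 (by Vps35) and others whose overlaps are not named here.

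Values were transformed to log2(FPKM + 1), a scale that understates the change of low genes. The 11079 genes averaging 1 FPKM or more were fitted in a means model of 3 groups in R 4.3.3 by limma 3.58.1, letting the prior variance follow the mean, 3 residual and 4.96 prior degrees of freedom, two-sided, with Benjamini-Hochberg adjustment over all genes tested. No count model was run on these normalized values. SE is that of limma. The fit was also run on simulated data in which few genes changed, whereas 50.0% of all genes were called over both hairpins here. That run therefore does not measure how reliable these calls are. Tables and figures were made with Python 3.11.15, pandas 2.3.3, NumPy 2.4.6 and matplotlib 3.10.9. The alternatives changed the pseudocount (0.1 or 0.5), the filter (none, or an average of 5 FPKM), the scaling (3 others), and the model (a replicate block, no variance trend, each library left out in turn, or both hairpins as 1 group). Where a library is left out, the lone library of its group is assumed to vary like the others.

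The members, the lists and the tests were chosen with earlier results of these data known. Within each role the genes with the largest change over both hairpins and those differing between the hairpins are given by library. Of each list of other genes the 3 called genes with the largest change over both hairpins are named. The promoter words, the promoters shown and the sorting by polymerase were chosen after values were seen.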

Additional observations from a re-analysis of the deposited data

Results flagged for a closer look

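The effects of the hairpins shRNA3 and shRNA1 on the same gene differed by the direct test of shRNA3 against shRNA1 (limma, Benjamini-Hochberg adjusted p under 0.05) for 30 of the 49 genes (61.2%), beside 4713 of the 11079 genes tested (42.5%). Values in this section are log2 changes of shRNA3 over shRNA1. Lower with shRNA3 were Tk1 (-0.52), Mcm6 (-0.50), Fen1 (-0.48), Umps (-0.47), Mcm2 (-0.44), Mcm3 (-0.44), Tyms (-0.43), Mcm5 (-0.42) and Cad (-0.42). Smaller differences in this direction were those of Rpa3 (-0.41), Pcna (-0.40), Mcm4 (-0.38), Pole2 (-0.38), Dut (-0.38), Rrm2 (-0.36), E2f1 (-0.35), Gins1 (-0.34) and Cdc6 (-0.32), and of Rrm1 (-0.30), Orc1 (-0.27), Uhrf1 (-0.27), Rfc2 (-0.26), Rfc5 (-0.25), Mcm7 (-0.22), Pole (-0.20) and Chaf1a (-0.18). Higher with shRNA3 were Ctps (0.75), Pold2 (0.32), Pold1 (0.31) and Rpa1 (0.28). Of the other pathway genes named, Nme1 (-1.08), Nasp (-0.64), Pole4 (-0.55), Adsl (-0.51), Dctd (-0.28), Mtbp (-0.22), Orc5 (-0.22) and Ssrp1 (-0.15) were lower and Pold4 (0.35) and Rb1 (0.32) were higher with shRNA3. The calls of Orc1, Rfc5, Rpa3, Pole, Pole2, Chaf1a, Mtbp, Orc5, Dctd, Ssrp1 and Rb1 ended in at least 1 fit that left out a hairpin library, with adjusted p over all alternatives of at most 0.206.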

How the results depend on the processing

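No called change of a named gene turned direction under an alternative, whereas small changes that were not called did. The median of the 49 genes with shRNA1 against WT turned to -0.0078 under the rescaling to the same total. Rescaling to the same total lowered the number of higher genes to 3 (6.12%) over both hairpins, to 7 (14.3%) with shRNA1 and to 3 (6.12%) with shRNA3. Of all genes 17.6%, 13.2% and 21.0% were higher in the same order. This scaling moved the median of all genes against WT to -0.08 with shRNA3 and -0.06 with shRNA1. Fitting the knockdown libraries as 1 group left 0 higher and 0 lower, beside 7.20% and 6.45% of all genes. The replicate block ended the calls of Mcm7 and Gins2 with shRNA1 and of Rfc1 and Pole with shRNA3. It also ended those of Pole and Orc5 between the hairpins and of Cdc45 over both. Without the variance trend those of Mcm7, Gins2, Rpa3 and Uhrf1 with shRNA1 and of Mcm3 with shRNA3 ended. So did those of Ssrp1 between the hairpins and of Cdc45, Prim1 and Pold1 over both. Without the filter those of Rpa3 and Orc5 with shRNA1 and of Mcm10 and Pole with shRNA3 ended. The same holds for Rfc5, Pole and Orc5 between the hairpins and for Prim1, Pold1 and Cad over both. Quantile normalization ended those of Mcm10 and Pole with shRNA3 and of Cad over both. Scaling by the median of ratios ended those of Pole with shRNA3 and of Cdc45 over both. Leaving out each library in turn gave 8 to 13 falls over both hairpins, 8 to 13 rises and 2 to 4 falls with shRNA1, and 13 to 20 falls with shRNA3. The numbers of lower (21 to 26) and higher (4 to 5) genes between the hairpins stayed within 1.5 times. With the replicate number as a block, 6 genes rose and 15 fell over both hairpins, 13 rose and 3 fell with shRNA1, 4 rose and 20 fell with shRNA3, and 4 were higher and 25 lower with shRNA3 than with shRNA1. The differences between replicates 1 and 2 correlated across genes by -0.07 between shRNA3 and WT and 0.01 between shRNA1 and WT, so no pairing with WT was seen. Between the hairpins they correlated by 0.20, and the source of this correlation was not tested. With 2 libraries a group, small changes of single genes rest on few degrees of freedom.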
